A study of Mus musculus with 4 samples.

Results

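The CXC chemokines are small secreted proteins that guide leukocytes along a gradient through receptors on their surface. RNA of 8 CXC chemokine genes was described here in activated group 2 innate lymphoid cells (ILC2s) of the mouse lung, namely Cxcl1, Cxcl2, Cxcl3, Cxcl9, Cxcl10, Cxcl12, Cxcl15 and Cxcl16. They were chosen by gene symbol, with earlier results of these data known, and are 8 of the 22558 genes in the count table. The libraries fell into 2 groups of 2, WT (C57BL/6) and ICAM-1 KO (B6.129S4-Icam1tm1Jcgr/J), a line in which the adhesion molecule ICAM-1 is disrupted in every cell of the animal and not in ILC2s alone. The mice of both groups were 6 weeks old and had received 3 intranasal injections of 0.5 µg recombinant mouse IL-33, an epithelial alarm cytokine that activates ILC2s, and the lungs were taken on day 4. Each library is a pool of 4 mice, from which cells negative for lineage antigens and positive for CD45, ST2 and CD127 were sorted to a purity above 95%. Lineage antigens included CD11b, CD11c and Gr-1 on myeloid cells and CD3ε, CD4, CD5 and CD45R on lymphocytes. There was no library from mice without IL-33, so the levels below are those of activated cells and say nothing of induction.

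CXC ligands with a glutamate-leucine-arginine (ELR) motif before the paired cysteines, here Cxcl1, Cxcl2, Cxcl3 and Cxcl15, attract neutrophils, for the most part through the receptor Cxcr2. Cxcl9 and Cxcl10 are induced by interferons and act on Cxcr3, which T cells and natural killer cells carry. Cxcl12 is made steadily by stromal and endothelial cells and acts on Cxcr4, while Cxcl16 is made as a membrane protein, is recognised by Cxcr6 and is released by the protease Adam10. Transcription of Cxcl1, Cxcl2 and Cxcl3 is driven by NF-κB, which IL-33 activates through its receptor ST2, and their short-lived mRNAs are under the control of decay factors such as Zfp36.

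Promoter sequence is shown for the genes of the chromosome 5 cluster that the comparison turns on, since neighbours there moved in opposite directions. The windows end before the first base of each gene as listed in the deposited tables and were taken from RefSeq (GRCm38.p6). They are the plus strand of chr5:90891121-90891240 for Cxcl1, chr5:90903751-90903870 for Cxcl2, chr5:90785981-90786100 for Cxcl3 and chr5:90794414-90794533 for Cxcl15, and the minus strand of chr5:92348890-92349114 for Cxcl10, all read 5′ to 3′. Capitals mark a match to the κB consensus and, in Cxcl10, also a match to the interferon-stimulated response element (GAAA, any 2 bases, GAAA), which is the one nearest the 5′ end.
Cxcl1: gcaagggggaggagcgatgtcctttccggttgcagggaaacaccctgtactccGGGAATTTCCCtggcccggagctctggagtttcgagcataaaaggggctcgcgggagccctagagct
Cxcl2: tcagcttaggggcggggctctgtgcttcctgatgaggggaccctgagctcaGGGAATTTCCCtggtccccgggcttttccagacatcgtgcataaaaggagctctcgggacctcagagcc
Cxcl3: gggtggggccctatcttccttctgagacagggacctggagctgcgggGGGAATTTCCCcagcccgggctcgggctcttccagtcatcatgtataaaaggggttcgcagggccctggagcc
Cxcl15: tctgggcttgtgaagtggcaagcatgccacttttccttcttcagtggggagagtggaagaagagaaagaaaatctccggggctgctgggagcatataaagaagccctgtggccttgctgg
Cxcl10: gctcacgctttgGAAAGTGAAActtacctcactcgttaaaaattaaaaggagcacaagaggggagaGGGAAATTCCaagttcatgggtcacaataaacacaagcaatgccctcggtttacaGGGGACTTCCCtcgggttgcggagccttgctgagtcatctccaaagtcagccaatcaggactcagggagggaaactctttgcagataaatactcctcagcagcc

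In Cxcl1, Cxcl2 and Cxcl3 the same 11 letters, which match the κB consensus on both strands with overlapping matches, begin 67, 69 and 75 bases before the listed gene start. In Cxcl10 a κB match begins 159 bases and another 104 bases before the gene start, the interferon-stimulated response element 213 bases before it, and a match to the AP-1 site TGANTCA 74 bases before it. No match to these motifs or to the gamma-activated site TTCNNNGAA was found on either strand in the 250 bases before Cxcl15, Cxcl9 or Cxcl12. Of all 32851 RefSeq promoters of that length, 7.25% held a κB match, 2.98% an interferon-stimulated response element, 7.02% a gamma-activated site and 6.75% an AP-1 site, counted on both strands. A match is a run of letters and no measurement of binding. Promoters were found for 7 of the 8 genes, and Cxcl16 was not among them.

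The depth was 24796148 to 28782471 counts per library. Over all tested genes, the correlation of log CPM was 0.966 within WT, 0.969 within ICAM-1 KO and 0.931 to 0.938 across the groups. RNA of Icam1 was not lower in the ICAM-1 KO-labelled libraries, with normalized counts of 85.2 and 83.3 in WT and of 97.6 and 110 in ICAM-1 KO (log2 fold change 0.33, SE 0.108, adjusted p = 0.0745), so that the label was not checked by its own gene and is used below as a label. The counts are per gene and do not show which part of Icam1 was read. For protein, the paper measured ICAM-1 on activated lung ILC2s of both genotypes by flow cytometry and states that the deficient mice lack it. The sorted cells carried ILC2 RNA in every library, with none of the 18 listed ILC2 genes at 0 and a summed normalized count of 9784 and 10550 in WT and of 8357 and 8479 in ICAM-1 KO. Of these 18 genes Klrg1 and Ptprc were higher and 6 were lower in ICAM-1 KO, among them the most abundant, Arg1, Id2 and Il5, while the median log2 fold change was -0.06, with 7 positive and 11 negative values. Genes of other lung cells were higher in the ICAM-1 KO-labelled libraries: 21 of 21 tested endothelial genes, 12 of 16 macrophage and monocyte genes, 7 of 13 epithelial genes, 6 of 9 neutrophil genes, 5 of 9 T cell genes and 2 of 5 dendritic cell genes passed the test in that direction and 0 in the other by edgeR, DESeq2 or limma, where 1 neutrophil and 1 T cell gene had an unadjusted p under 0.05. The T cell genes that passed were Trac, Foxp3, Cd3d, Cd4 and Cd5, at log2 fold changes of 1.49 to 1.84, while the abundant Cd3g did not (-0.33). The dendritic cell genes were Zbtb46 and Cd209a, at 1.05 and 1.83, while Ccr7 (0.13) and Xcr1 (0.20) did not pass. Of 8 fibroblast and smooth muscle genes edgeR called 0 higher (3 at an unadjusted p under 0.05, 1 by DESeq2, 0 by limma) and 1 lower, Npnt. Of 7 basophil and mast cell genes edgeR called 0 (2 at an unadjusted p under 0.05, 1 by DESeq2, 0 by limma), the most abundant being Cpa3 (0.40), Kit (-0.09) and Mcpt8 (-0.10). Among all tested genes 8.8% passed as higher and 4.97% as lower. In the endothelial, macrophage, epithelial, neutrophil and dendritic cell lists, some genes that passed were very low in WT. At their WT levels these would not have reached the limit for testing, a summed normalized count of 10. They entered through the ICAM-1 KO-labelled libraries, so nothing is read from their part of the counts. In these bulk libraries fewer cells of a type and less RNA per cell cannot be told apart.

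RNA of 4 of the 8 genes differed between the groups. Cxcl2 and Cxcl3 were lower in the ICAM-1 KO-labelled libraries, and Cxcl15 and Cxcl12 were higher. Cxcl1, Cxcl10 and Cxcl16 did not pass the test and Cxcl9 was too low to be tested. A gene passed at an adjusted p under 0.05 (edgeR, quasi-likelihood F-test, Benjamini-Hochberg over the 11711 genes tested), and 13.8% of these passed. In the higher direction 2 of the 7 tested CXC genes passed against 8.8% of all genes, and in the lower direction 2 of 7 against 4.97%. The members were chosen with earlier results of these data known, so no excess is read from either count. A change of at least 2-fold as well was reached by 2 of 7, Cxcl15 and Cxcl12, against 5.47% of all genes. Both reached the limit for testing only through the ICAM-1 KO-labelled libraries, where they were high, so nothing is read from these counts of higher genes. The groups did not overlap in 6 of 7, against 59.5% of all genes. The median log2 fold change of the 7 genes was -0.03, and that of all genes tested 0.01. Cxcl15 and Cxcl12 are part of the 6 of 7 and of this median, so nothing is read from either.

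Levels between genes were compared per length, as depth-scaled counts (CPM) per kb of exon. In WT Cxcl2 stood first at 286 ± 7.76 (SD, n = 2), followed by Cxcl3 at 66.6 ± 21.2, Cxcl10 at 38.1 ± 3.90, Cxcl1 at 17.3 ± 3.74 and Cxcl16 at 2.74 ± 0.719. Cxcl15, Cxcl12 and Cxcl9 lay lowest, at 0.329 ± 0.0721, 0.223 ± 0.135 and 0.126 ± 0.0970, and here the libraries of neighbours in the order overlapped. In the ICAM-1 KO-labelled libraries the order began with Cxcl2 at 184 ± 11.7, while Cxcl3 at 39.0 ± 1.14 and Cxcl10 at 38.2 ± 8.60 overlapped. Cxcl1 followed at 12.9 ± 0.960, then Cxcl15 at 7.53 ± 2.23, Cxcl16 at 4.22 ± 0.422 and Cxcl12 at 0.784 ± 0.0693. Thus Cxcl15 stood below Cxcl16 in both WT libraries and above it in both ICAM-1 KO-labelled libraries. The plot of levels by library shows this exchange of places and the spread within each group.

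**Figure D1:**
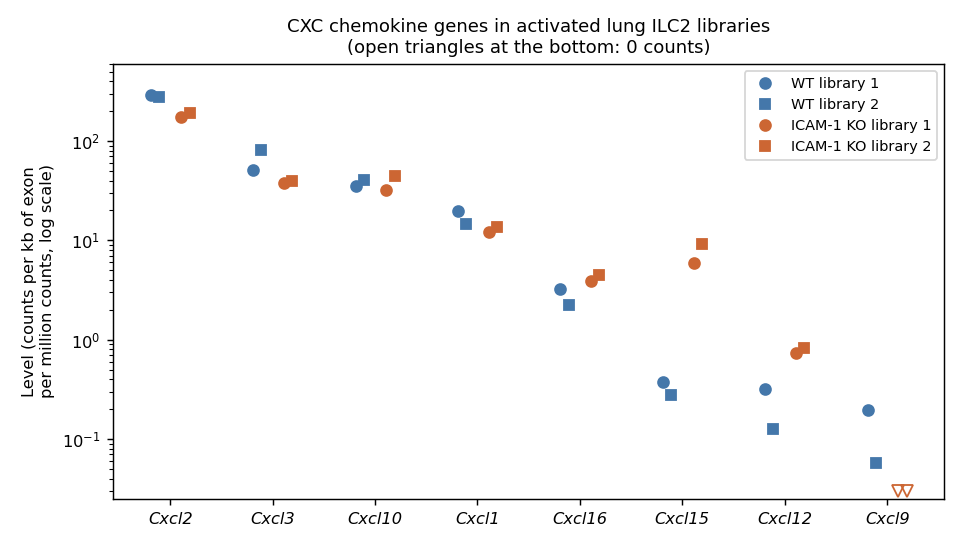
Level of each CXC chemokine gene in the 4 libraries, in CPM per kb of exon on a log axis, with WT in blue and ICAM-1 KO in orange, circles for library 1 and squares for library 2 of each group, and open triangles at the bottom for 0 counts. Cxcl2 was the highest in every library, and Cxcl15 rose from a mean of 0.329 in WT to 7.53 in ICAM-1 KO.

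The ELR ligands Cxcl1, Cxcl2 and Cxcl3 made up most of the CXC RNA. Together they took 90.2% and 89.6% of the summed level per length of the 8 genes in WT library 1 and 2, and 84.1% and 80.7% in ICAM-1 KO library 1 and 2. Cxcl2 alone took 72.4% and 66.8% in WT and 65.3% and 63.1% in ICAM-1 KO. As a share of all counts, the 8 genes held 0.0915% and 0.0994% in WT against 0.0622% and 0.0701% in ICAM-1 KO. The groups did not overlap in any of these 3 shares. With 2 against 2 libraries an exact permutation test (two-sided) cannot go below p = 0.333. It gave this value for the joint share of Cxcl1, Cxcl2 and Cxcl3 and for the share of all counts. Cxcl15, also an ELR ligand, is not in that joint share. It took 0.0942% and 0.0660% of the summed level in WT and 2.22% and 3.00% in ICAM-1 KO.

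Cxcl2 (chr5:90903871-90905938, plus strand), a neutrophil attractant of rapid induction, had normalized counts of 543 and 529 in WT and of 312 and 347 in ICAM-1 KO. Both ICAM-1 KO-labelled libraries lay well under both WT libraries, and each group was narrow. The difference was 1.60-fold (log2 fold change -0.67, SE 0.0894, 95% confidence interval -0.88 to -0.47, adjusted p = 0.00274). When a library was left out the log2 fold change stayed between -0.76 and -0.59, and the adjusted p reached at most 0.0247. Cxcl2 can share reads with Cxcl3, since 5.84% of its 50-base windows also occur in that gene.

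Cxcl3 (chr5:90786103-90789600, plus strand), a close relative of Cxcl2, had normalized counts of 163 and 260 in WT and of 115 and 122 in ICAM-1 KO. The WT libraries stood far apart, and both lay above those labelled ICAM-1 KO. The difference was 1.75-fold (log2 fold change -0.81, SE 0.186, adjusted p = 0.0238). It rested in part on WT library 2, without which the log2 fold change was -0.43 and the adjusted p 0.0728. The ratio of Cxcl2 to Cxcl3 per length was 5.65 and 3.44 in WT and 4.59 and 4.82 in ICAM-1 KO, so the groups overlapped in it.

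Cxcl1 (chr5:90891241-90893115, plus strand), also known as KC, had normalized counts of 33.7 and 25.1 in WT and of 19.8 and 22.3 in ICAM-1 KO. Its groups did not overlap either, but the difference did not pass the test (log2 fold change -0.45, SE 0.196, interval -0.90 to -0.01, unadjusted p = 0.0462, adjusted p = 0.157). The intervals of Cxcl1, Cxcl2 and Cxcl3 overlapped one another, and whether these genes differ in their change was not tested. None of the 50-base windows of Cxcl1 occurred in another gene.

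Cxcl15 (chr5:90794534-90803067, plus strand), also known as lungkine and typical of lung epithelium, went the other way. Its counts were 22 and 17 in WT and 314 and 532 in ICAM-1 KO, which are normalized counts of 0.759 and 0.570 against 10.9 and 17.0. The groups lay far apart, and within ICAM-1 KO library 2 was the higher. Cxcl15 was 22.5-fold higher (95% confidence interval 10.4 to 48.5, log2 fold change 4.49, SE 0.489, adjusted p = 0.00131), and without any one library the log2 fold change was 4.12 to 4.78. With a WT mean under 1, it entered the test through the ICAM-1 KO-labelled libraries alone.

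Epithelial RNA was higher in the same libraries. The 17 listed epithelial genes had summed normalized counts of 483 and 262 in WT and of 706 and 1601 in ICAM-1 KO, with a median log2 fold change of 1.66 over the 13 tested and none at 0 in all libraries. Some of the 13, such as Lamp3 and Slc34a2 (WT means 0.247 and 0.676), entered the test through the ICAM-1 KO-labelled libraries. Nothing is read from this median. Scgb1a1, the secretoglobin of club cells and the most abundant of the 17, overlapped between groups with 338, 142, 123 and 510 in WT 1, WT 2, ICAM-1 KO 1 and ICAM-1 KO 2, in that order. Sftpa1, a surfactant protein, had 31.8, 23.1, 112 and 220 in the same order and was higher (log2 fold change 2.63, adjusted p = 0.00146). Sftpc, the surfactant protein of alveolar type II cells, had 24.2, 0.570, 253 and 537 (log2 fold change 5.05, adjusted p = 0.00477). Between the WT libraries Cxcl15 was similar where Sftpc was not, and between the ICAM-1 KO-labelled libraries both were higher in library 2. The part of epithelial RNA in the Cxcl15 result was not tested.

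Of the interferon-inducible ligands, Cxcl10 was abundant and Cxcl9 scarce. Cxcl10 (chr5:92346638-92348889, minus strand) had normalized counts of 71.6 and 83.9 in WT and of 62.3 and 87.3 in ICAM-1 KO, and the groups overlapped. The log2 fold change was -0.03 (SE 0.166, 95% confidence interval -0.40 to 0.35, adjusted p = 0.934), an interval that leaves room for a moderate change in either direction. Cxcl10 overlaps Art3 on the other strand, and 3.59% of its 50-base windows occur in that gene.

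Cxcl9 (chr5:92321347-92328079, minus strand) had 16 and 5 counts in WT and 0 and 0 in ICAM-1 KO. Against a floor of 3 counts per library, and with the WT counts taken as exact, it was at least 3.44-fold lower in ICAM-1 KO. This bound covers the counting error of the 0 counts alone. The bound rested on WT library 1, since it was 1.59-fold without that library and 5.29-fold without WT library 2. Its mean normalized count was under 1, so it was not tested. Without that limit edgeR gave an unadjusted p of 0.042 and an adjusted p of 0.219, which does not pass. Cxcl9 and Cxcl10 lie side by side in one orientation, and in WT their levels per length were 0.126 and 38.1.

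Of 13 tested genes that convey or limit interferon signals 2 were higher and 0 lower in ICAM-1 KO (also 0 lower at an unadjusted p under 0.05 or by DESeq2 or limma), with a median log2 fold change of 0.18. Since 8.8% of all genes tested passed as higher and 4.97% as lower, nothing is read from these counts. Ifnar1, a subunit of the type I interferon receptor, had normalized counts of 144 and 145 in WT and 224 and 252 in ICAM-1 KO and was higher (log2 fold change 0.74, adjusted p = 0.00247). The kinase Jak2 was at 295 and 315 in WT and 381 and 366 in ICAM-1 KO (log2 ratio 0.32, adjusted p = 0.0365), a call that was lost when any one of the 4 libraries was left out (adjusted p = 0.0757 to 0.160). Jak1 (log2 fold change -0.08, adjusted p = 0.565) and Ifngr1, a chain of the interferon gamma receptor (0.41, adjusted p = 0.0704), did not pass.

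For Cxcl1, Cxcl2 and Cxcl3, 18 genes of the ST2 and NF-κB pathway and of mRNA decay were tested, of which edgeR called 1 higher and 0 lower (1 lower at an unadjusted p under 0.05, 1 by DESeq2, 1 by limma), with a median log2 fold change of 0.06. Nothing is read from these counts, as 8.8% of all genes tested passed as higher and 4.97% as lower. The one that passed was Rel, the NF-κB subunit c-Rel, at normalized counts of 68.4 and 78.6 in WT and 124 and 117 in ICAM-1 KO (log2 ratio 0.73, adjusted p = 0.00418). The most abundant of the 18 did not pass. Nfkbia, the inhibitor that NF-κB itself induces, was at -0.22 on the log2 scale (adjusted p = 0.281), Tnfaip3, an inhibitor upstream of NF-κB, at -0.05 (adjusted p = 0.702), and Il1rl1, which encodes ST2, at 0.21 (adjusted p = 0.173). Cxcl1, Cxcl2 and Cxcl3, whose promoters share the 11 letters shown above, all had lower values in both ICAM-1 KO-labelled libraries. Cxcl2 and Cxcl3 passed the test and Cxcl1 did not (adjusted p = 0.157). In either direction, groups did not overlap in 59.5% of all genes tested. Cxcl10, whose promoter also holds κB matches, overlapped between groups (log2 fold change -0.03, adjusted p = 0.934). The part of these sequences, or of NF-κB, in the values of the 4 genes was not tested.

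Cxcl12 (chr6:117168535-117181367, plus strand) had 71 and 30 counts in WT and 149 and 187 in ICAM-1 KO, or normalized counts of 2.38 and 0.982 against 5.21 and 5.99. Both ICAM-1 KO-labelled libraries were higher than both WT libraries, and WT library 2 was the lowest. Cxcl12 was 3.47-fold higher (95% confidence interval 1.69 to 7.12, log2 fold change 1.80, SE 0.458, adjusted p = 0.0346). The call was lost without WT library 2 (1.28, adjusted p = 0.152) and without ICAM-1 KO library 2 (1.68, adjusted p = 0.0717), and also under the older edgeR test (adjusted p = 0.0562). Without WT library 1 the log2 fold change was 2.58 (adjusted p = 0.0442). At its WT level Cxcl12 would not have reached the limit for testing, a summed normalized count of 10, so it entered through the ICAM-1 KO-labelled libraries.

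Endothelial RNA was higher in the same libraries, as were genes of several other lung cell types given above. The 22 listed endothelial genes had summed normalized counts of 399 and 371 in WT and of 1046 and 1071 in ICAM-1 KO, with a median log2 fold change of 1.67 and none at 0 in all libraries. Some of those tested, such as Emcn and Sox17 (WT means 1.63 and 1.96), entered through the ICAM-1 KO-labelled libraries, so nothing is read from this median. The most abundant endothelial genes, all higher, were Calcrl, a receptor subunit for adrenomedullin (log2 fold change 1.00, adjusted p = 0.00155), the adhesion molecule Pecam1 (1.07, adjusted p = 0.00112) and Plvap, a component of endothelial diaphragms (1.70, adjusted p = 0.000282). Fibroblast and smooth muscle genes, another known source of Cxcl12, summed to 182 and 233 in WT and to 170 and 188 in ICAM-1 KO, but Npnt made up most of this sum, with 159 and 175 in WT and 116 and 89.9 in ICAM-1 KO. The median log2 fold change of the 8 tested was 0.98, and 7 of the 8 values were positive. Inmt and Dcn, with WT means of 1.72 and 2.30, entered the test through the ICAM-1 KO-labelled libraries. Nothing is read from this median or from these signs. The most abundant tested genes were Npnt (-0.67, adjusted p = 0.0109), Col3a1 (1.30, adjusted p = 0.142) and Col1a2 (0.36, adjusted p = 0.714). Between the WT libraries the endothelial sum was similar where Cxcl12, at normalized counts of 2.38 and 0.982, was not. The part of endothelial or fibroblast RNA in the Cxcl12 result was not tested.

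Cxcl16 (chr11:70453983-70459984, minus strand) had normalized counts of 8.86 and 6.18 in WT and of 10.2 and 12.0 in ICAM-1 KO. The groups did not overlap, but the difference did not pass the test (log2 fold change 0.60, SE 0.283, 95% confidence interval -0.05 to 1.24, adjusted p = 0.195). Cxcl16 overlaps Zmynd15 on the other strand, and 16.9% of its 50-base windows occur in that gene. Macrophage and monocyte genes, a lineage known to make Cxcl16, summed to 568 and 581 in WT and to 1004 and 1223 in ICAM-1 KO, with a median log2 fold change of 1.21 over 16 tested. Some of the 16, such as Marco and Mertk (WT means 0.977 and 0.399), entered the test through the ICAM-1 KO-labelled libraries. Nothing is read from this median. Of the most abundant macrophage and monocyte genes, Lyz2 (1.46, adjusted p = 0.00324) and the lipopolysaccharide receptor Cd14 (1.17, adjusted p = 0.00140) were higher and Ccr2 was not (0.33, adjusted p = 0.0563). Their part in the values of Cxcl16 was not tested.

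**Figure D2:**
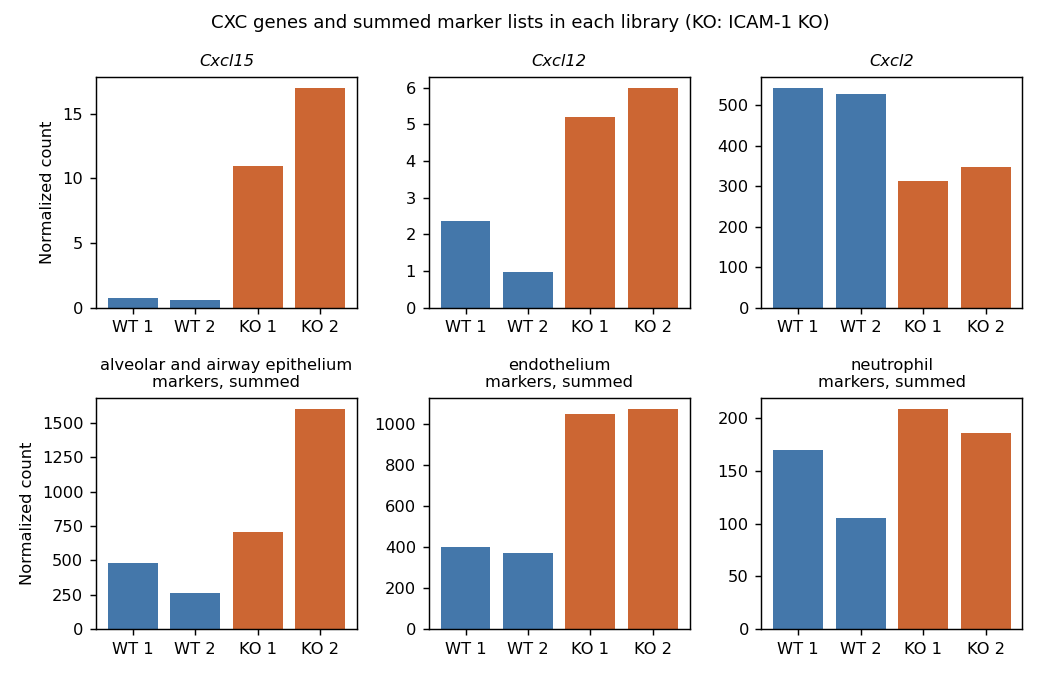
Normalized counts of Cxcl15, Cxcl12 and Cxcl2 in each library (upper row) and the summed normalized counts of listed epithelial, endothelial and neutrophil genes (lower row), with bars from 0, WT in blue and ICAM-1 KO in orange. Cxcl15 and the epithelial sum, and Cxcl12 and the endothelial sum, were higher in both ICAM-1 KO-labelled libraries, while Cxcl2 was lower there and the neutrophil sum was 209 and 186 against 170 and 105 in WT. Mpo alone gave 7.85 and 24.3 of these neutrophil sums in ICAM-1 KO and 80.4 and 21.9 in WT.

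Neutrophils and macrophages also make Cxcl2 and Cxcl3. The 12 listed neutrophil genes summed to 170 and 105 in WT and to 209 and 186 in ICAM-1 KO, with 7 positive and 2 negative values among the 9 tested. The calgranulins S100a9 (log2 fold change 1.32, adjusted p = 0.00190) and S100a8 (1.24, adjusted p = 0.0118) were higher, and Mpo, a neutrophil granule enzyme, was at 80.4 and 21.9 in WT against 7.85 and 24.3 (-1.62, adjusted p = 0.101). The part of RNA from these cells, or of the ILC2 genes given above, in the values of Cxcl2 and Cxcl3 was not tested.

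The remaining CXC ligands were scarce, with at most 222 counts in any library. Of 7 genes 2 were tested, Pf4 and Ppbp, the platelet factor and platelet basic protein, and both passed as higher. Their WT values alone would not have reached the limit for testing. Pf4 had 37 and 49 counts in WT and 99 and 202 in ICAM-1 KO (log2 fold change 1.87, SE 0.502, adjusted p = 0.0408), and Ppbp 31 and 88 against 141 and 222 (1.67, SE 0.478, adjusted p = 0.0495). Neither call held when WT library 1 (adjusted p = 0.147 and 0.187), WT library 2 (0.121 and 0.0555) or ICAM-1 KO library 2 (0.207 and 0.148) was left out. Without WT library 2 the log2 fold changes were 2.05 for Pf4 and 2.58 for Ppbp, above the values from all libraries, and without WT library 1 they were 1.71 and 1.14. Cxcl5, an ELR ligand of epithelium, had 39 and 68 counts in WT and 93 and 69 in ICAM-1 KO, and Cxcl17, a mucosal ligand, 45 and 21 against 23 and 137. Cxcl11, the third ligand of Cxcr3, had 1 and 13 against 9 and 3. Cxcl13, the B cell attractant, was seen in ICAM-1 KO library 2 alone with 23 counts, and Cxcl14 had 0 and 3 against 7 and 30. These 5 genes were not tested.

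The receptors of these ligands were examined next. Of 8 receptor genes 6 were tested, 2 were lower and 0 higher in ICAM-1 KO by edgeR (2 higher at an unadjusted p under 0.05, 1 by DESeq2, 0 by limma), and the median log2 fold change was 0.27. The shares of all genes tested were 4.97% lower and 8.8% higher. The list was chosen with earlier results known, so no excess is read from these counts. Cxcr4, the receptor of Cxcl12, had normalized counts of 224 and 288 in WT and of 54.4 and 64.1 in ICAM-1 KO and was 4.23-fold lower (95% confidence interval 3.38 to 5.30, log2 fold change -2.08, SE 0.143, adjusted p = 0.000136). Cxcr6, the receptor of Cxcl16 and the most abundant of these receptors by normalized count, had 647 and 648 in WT and 451 and 438 in ICAM-1 KO and was 1.43-fold lower (log2 fold change -0.52, SE 0.0784, adjusted p = 0.00470). So RNA of Cxcl12 was higher and that of its receptor lower in the same libraries, and the same signs without a passed test for the ligand stood for Cxcl16 and Cxcr6.

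Cxcr2, through which the ELR ligands act, was low, with normalized counts of 2.91 and 4.02 in WT and 7.91 and 4.49 in ICAM-1 KO (log2 ratio 0.86, adjusted p = 0.191). Cxcr3, the receptor of Cxcl9 and Cxcl10, had 5.32 and 5.42 against 12.3 and 8.25 (0.96, adjusted p = 0.0719). Cxcr5 (0.54, adjusted p = 0.160) and the scavenging Cxcl12 receptor Ackr3 (0.00, adjusted p = 0.998) did not pass. Cxcr1 had 9 and 8 counts in WT and 0 and 0 in ICAM-1 KO, and Ackr1 1 and 39 against 18 and 23, and both were too low to be tested.

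**Figure D3:**
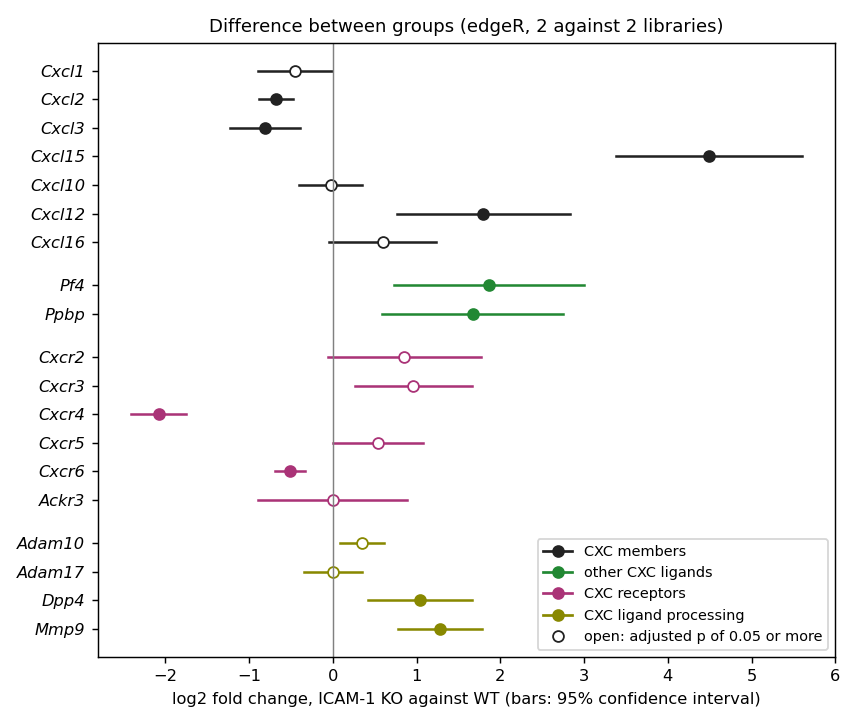
Log2 fold change of ICAM-1 KO against WT (horizontal axis) with its 95% confidence interval as a bar, for the tested CXC members and the tested genes of the other CXC ligands, the receptors and the processing enzymes, with filled points for an adjusted p under 0.05. Cxcl15 lies farthest to the right at 4.49 and Cxcr4 farthest to the left at -2.08.

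Of the proteases that cut or release CXC ligands, 4 were tested, 2 were higher and 0 lower, also 0 lower at an unadjusted p under 0.05 or by DESeq2 or limma. Among all genes tested 8.8% passed as higher and 4.97% as lower. This list too was chosen with earlier results known, so no excess is read from these counts. Mmp9, a gelatinase that trims ELR ligands, had normalized counts of 10.3 and 7.95 in WT and 21.9 and 21.4 in ICAM-1 KO (log2 fold change 1.28, SE 0.223, adjusted p = 0.00869). Dpp4, which trims Cxcl12 and Cxcl10 at their amino end, had 8.77 and 16.7 against 28.0 and 23.5 (1.04, SE 0.276, adjusted p = 0.0391), a call lost without WT library 1 (0.65, adjusted p = 0.129) and without ICAM-1 KO library 1 (0.92, adjusted p = 0.0609). Adam10, which sheds Cxcl16 (0.34, adjusted p = 0.0838), and the related Adam17 (0.00, adjusted p = 0.996) did not pass. The neutrophil collagenase Mmp8 had 100 and 37 counts against 109 and 38 and was not tested.

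On chromosome 5 the genes whose RNA moved in opposite directions are neighbours. From Cxcl5 to Cxcl11 the count table lists 31 genes over 1.61 Mb, of which 15 were tested and 5 passed, namely Ppbp, Pf4, Cxcl3, Cxcl15 and Cxcl2. Over all genes tested 13.8% passed. Ppbp, Pf4 and Cxcl15 entered the test through the ICAM-1 KO-labelled libraries, so nothing is read from this count. Cxcl3, which was lower, ends 4.9 kb before Cxcl15, which was higher, and a gap of 88.2 kb separates Cxcl15 from Cxcl1. Cxcl1 and Cxcl2 are 10.8 kb apart, and Cxcl9 begins 1.42 Mb beyond Cxcl2. Areg, the epidermal growth factor ligand that activated ILC2s release and the gene with the most counts in the interval, did not pass (log2 fold change -0.23, adjusted p = 0.170).

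**Figure D4:**
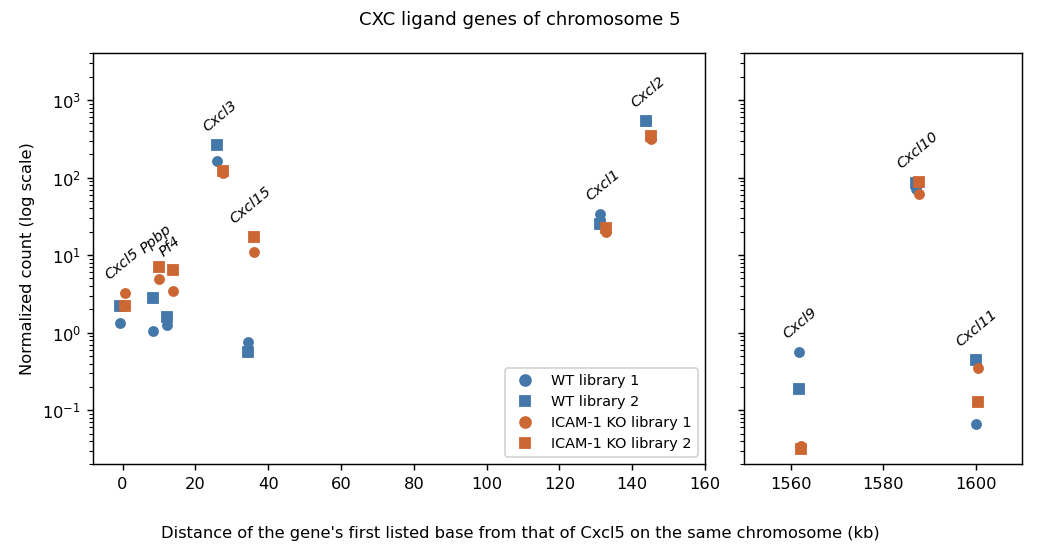
Normalized counts (log axis) of the CXC ligand genes of chromosome 5 in each library, placed by the distance in kb of the first listed base from that of Cxcl5, with the axis broken between the groups of genes. Cxcl15 lies between Cxcl3 and Cxcl1 and was higher in ICAM-1 KO, while Cxcl3 and Cxcl2 were lower.

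Genes with the pattern most like that of each member over the 4 libraries were sought among the 8919 tested genes whose normalized counts averaged 10 or more, by the root mean square difference of centred log2 normalized counts. Cxcl15, Cxcl12 and Cxcl16 themselves averaged under 10, so other genes under that limit were not compared with them. For Cxcl2 these were Csrp1 (0.026), Il12rb1 (0.026) and Wdr77 (0.027), for Cxcl1 Pwp2 (0.024), Tusc2 (0.026) and Agfg2 (0.032), and for Cxcl3 Tff1 (0.041), AW112010 (0.089) and Scoc (0.099). For Cxcl10 they were Pip5k1a (0.014), Hist1h4i (0.023) and St7 (0.025), and for Cxcl16 Rnf170 (0.033), Sesn1 (0.042) and Ccnt2 (0.042). The nearest to Cxcl12 was Clec14a (0.060), a gene of the endothelial list, with normalized counts of 17.7 and 7.79 in WT and 43.6 and 47.3 in ICAM-1 KO, before Mid1 (0.149) and Sema3c (0.164). The 3 most abundant endothelial genes had no WT difference of that size, with 99.3 and 82.1 for Calcrl, 48.1 and 54.5 for Pecam1 and 37.4 and 29.6 for Plvap. Cxcl15 had no close neighbour among the genes compared, which leave out scarce epithelial genes. Chia1, an acidic chitinase of the lung, stood at 0.382, the immunoglobulin segment Igkv4-91 at 0.624 and Nxpe1-ps at 0.711. These are descriptions over 4 libraries that share 1 contrast.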

How the data were processed

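RNA of sorted lung ILC2s (10 ng per library) was made into cDNA with a SMARTer Ultra Low Input kit and sequenced on a NextSeq 500. Read alignment by the authors used STAR in Partek, with the mm10 index and the GENCODE M20 gene models. The deposited expected counts are estimates per gene and are not normalized. The deposited normalized signal, here called normalized count, was made by the authors with upper quartile scaling and equals the count plus 1 times 1 factor per library. Whether counting used strand is not given in the sources used here.

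Groups were taken from the labels. Counts were rounded and tested with edgeR 4.0.16 (glmQLFit, glmQLFTest, upper quartile factors, no covariate) in R 4.3.3 over 11711 genes, those whose normalized counts averaged 1 or more and summed to 10 or more, as in the study's methods, with Benjamini-Hochberg adjustment over all of them. The script was tested on simulated data. With 2 pools per group, p-values measure the spread between these libraries. Reads carry no molecular identifiers, so floors of 3 counts cover counting error alone. Levels per kb used the union of exons in GENCODE M21, whose coordinates equal those deposited for the members.

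The members and lists were chosen with earlier results of these data known. The genes named are Icam1, the members, the other CXC ligands, receptors and processing enzymes, the 3 most abundant tested genes of each further list with those that passed where these are 5 or fewer, and the 3 genes most like each member. Klrg1, Ptprc and Areg were added after their values were seen. The result of 1 marker list is not reported here.

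Alternatives were TMM factors, DESeq2 1.42.0, limma 3.58.1 on log2(normalized count + 1), the older edgeR test, other filters, a replicate block, a 2-fold threshold, the longest transcript as length and leaving out each library.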

Additional observations from a re-analysis of the deposited data

How the results depend on the processing

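Of 77 recomputed values of the 7 tested CXC genes, 68 kept their direction and their side of the threshold, 7 kept the direction and lost the call and 2 turned in sign. Cxcl2 and Cxcl15 kept their calls under every alternative except the 2-fold threshold, which Cxcl2 does not reach. The number of CXC genes higher in ICAM-1 KO, 2 as reported, was 1 under the older edgeR test, without the low-count filter and under filterByExpr of edgeR (1 in each, since Cxcl12 was lost), and 1 to 2 when a library was left out. The number lower, also 2, was 1 without the filter, since Cxcl3 was lost (adjusted p = 0.0995), 0 with a 2-fold threshold and 1 to 2 when a library was left out. The log2 fold change of Cxcl10, which did not pass, turned to 0.09 without WT library 2 and to 0.20 without ICAM-1 KO library 1, in a range of -0.30 to 0.20. Over all genes, 1030 were higher and 582 lower as reported. Higher genes numbered 334 without the filter, 578 at 2-fold and 479 to 948 with a library left out, and lower genes 201, 63 and 158 to 388, and 930 by DESeq2. The filter and the 2-fold threshold act by their construction on the number of genes, and for the other settings the cause was not tested. With the longest transcript as length, the mean level of Cxcl12 in ICAM-1 KO was 1.14 against 0.784. That of Cxcl16 in ICAM-1 KO was 4.72 against 4.22. Both moved by more than the SD between libraries, and the other levels per length did not.

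Replicate numbers occur in both groups, but same-numbered libraries did not deviate together (r = -0.058 over 11711 genes), so the numbers name the libraries only. With a replicate block 1077 genes were higher and 638 lower, and the 4 CXC calls held (log2 fold change -0.68 for Cxcl2, -0.77 for Cxcl3, 4.48 for Cxcl15 and 1.80 for Cxcl12). Depth limits Cxcl9 and the scarce ligands, whose counts near 0 allow bounds only.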
